A study of Mus musculus with 8 samples.

Results

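The collagen genes examined here were the 44 genes whose array annotation gave a single symbol of the form Col, number, a, number, out of 22180 genes tested. A gene with several probe sets, the groups of probes that together report a transcript, was represented by its brightest one, judged by the mean of the 8 arrays. The 44 genes comprised 11 fibrillar chains, 8 basement membrane chains (types IV, XV and XVIII) and 25 other chains. RNA came from the middle colon of female mice of strain C57BL/6-Trim58tm2313Arte, aged 9 weeks, with 4 Trim58+/+ (wild type) and 4 Trim58-/- (knockout) animals and 1 array per mouse. All 8 mice were given 4% dextran sodium sulfate (DSS), which damages the lining of the colon, in their water for 7 days, then plain water for 5 days, and were killed on day 12. Trim58 encodes a ubiquitin ligase, and the knockout was described as a complete loss of the gene rather than one limited to a cell type. The comparison therefore asks how the colon of mice lacking Trim58 differs after colitis. Untreated colon was not analysed here.

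Collagens are secreted proteins in which 3 chains wind into a triple helix. Fibrillar collagens assemble into the tensile fibrils of the submucosa, type IV chains form the sheet-like network of basement membranes, and the remaining types decorate fibrils, anchor cells or form filaments. In the gut they are made mainly by fibroblasts and smooth muscle cells, with endothelial and epithelial cells adding to basement membranes, and they are laid down anew during repair after colitis. The chains of some trimers are encoded by different genes, so type I collagen needs Col1a1 and Col1a2 and the common type IV network needs Col4a1 and Col4a2. Other trimers hold a single kind of chain.

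Before the results, the arrays themselves need a description. Array medians lay between 5.73 and 5.83 (log2 signal). Trim58 read 5.03 to 5.22 in wild type and 4.82 to 5.37 in knockout, so this probe set gives no check of the genotype labels (log2 difference -0.07, limma adjusted p = 0.839), and its place relative to the deletion is not known here. Knockout replicates 1, 2 and 4 carried pancreatic digestive enzyme RNA, with the mean of 11 measured acinar markers at 10.80, 11.78 and 11.52, against 5.46 in knockout replicate 3 and 5.63 to 5.76 in wild type. Knockout replicate 3 also stood nearer to the wild type arrays for many collagen genes, so its value is given beside the larger differences. The mean of 7 epithelial markers was 11.25 to 11.37 in wild type and 11.12 to 11.26 in knockout, with all 7 lower in knockout and 0 called (mean difference -0.13). That of 8 smooth muscle markers lay between 10.15 and 10.92. The part of the epithelial shift in the collagen differences was not tested.

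The promoters of the genes at the centre of the results are shown first, because Col1a2 and Col18a1 were the chains that passed the test and Col3a1 encodes the main fibril partner of type I collagen. Each sequence is the 250 bases before the start of transcription in RefSeq (GRCm38.p6), 5′ to 3′ on the strand of the gene. Capitals mark 3 motifs searched on both strands: the GC box GGGCGG bound by Sp1-type factors, the CCAAT box CCAAT bound by NF-Y, and the TATA box TATAAA. No matches overlapped in the sequences shown.
Col1a2, chr6:4505368-4505617, plus strand: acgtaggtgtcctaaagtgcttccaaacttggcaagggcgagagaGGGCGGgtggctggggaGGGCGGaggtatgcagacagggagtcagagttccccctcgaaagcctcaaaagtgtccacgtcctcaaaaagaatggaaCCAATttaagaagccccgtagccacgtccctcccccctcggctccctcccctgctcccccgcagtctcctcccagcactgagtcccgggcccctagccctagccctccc
Col18a1 (upstream start), chr10:77166531-77166780, minus strand: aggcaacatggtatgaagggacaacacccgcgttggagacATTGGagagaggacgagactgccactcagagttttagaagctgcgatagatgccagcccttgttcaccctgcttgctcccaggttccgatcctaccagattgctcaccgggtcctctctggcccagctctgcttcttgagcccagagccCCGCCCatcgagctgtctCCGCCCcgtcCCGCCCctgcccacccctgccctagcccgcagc
Col3a1, chr1:45311288-45311537, plus strand: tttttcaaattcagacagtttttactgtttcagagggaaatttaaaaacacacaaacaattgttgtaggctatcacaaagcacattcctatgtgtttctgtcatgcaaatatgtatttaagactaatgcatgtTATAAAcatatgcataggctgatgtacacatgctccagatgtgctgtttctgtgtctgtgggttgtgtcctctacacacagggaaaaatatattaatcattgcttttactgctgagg

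Col1a2 held 2 GC boxes and 1 CCAAT box, and the upstream start of Col18a1 held 3 GC boxes and 1 CCAAT box. The window of Col3a1 held 1 TATA box and neither of the other motifs, so the 3 promoters do not share a motif of this set. A second Col18a1 start, at chr10:77113706-77113955, held none of the 3. RefSeq windows were found for 35 of the 44 genes, 38 windows in all. Of these 22 (57.9%) held a GC box, against 32.7% of all 32851 promoter windows. A CCAAT box was in 34.2% of collagen windows and 33.8% of all, and a TATA box in 13.2% and 12.4%. Col4a1 and Col4a2, described below, are transcribed from opposite strands with starts 21 bases apart. The minus-strand Col4a1 start (11312826) lies beyond the plus-strand Col4a2 start (11312805), so the first bases of the transcripts overlap. Their 300-base windows have 78 bases in common. A match describes letters and does not show binding.

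Collagen RNA was on the whole higher in the knockout, by less than 2-fold, and unevenly across the family. The type I chains and their fibril partners Col3a1 and Col5a1, the common type IV pair Col4a1 and Col4a2, Col18a1 and Col12a1 had the largest differences, between 1.31-fold and 1.60-fold. Col4a5 and Col4a6 had differences in the opposite direction. At a limma adjusted p under 0.05, 2 of 44 genes rose, Col1a2 and Col18a1, and 0 fell. Over all 22180 genes the share called was 0.392% higher and 0.185% lower. At an unadjusted limma p under 0.05, 13 of the 44 (29.5%) were higher and 2 (4.55%) lower, against 6.22% and 8.10% of all genes. In 5 members the knockout range lay wholly above the wild type range and in 2 wholly below it, which is 11.4% and 4.55% of the family beside 3.79% and 5.02% of all genes. The difference was above 0 in 34 of the 44 (77.3%), against 46.1% of all genes, and the median difference was 0.10 on the log2 scale against -0.01 over all genes. These data come from whole tissue, in which more cells of a type and more RNA per cell cannot be told apart. Most knockout arrays also carried pancreatic RNA, and the part of RNA brought in with it in the collagen differences was not tested.

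**Figure D1:**
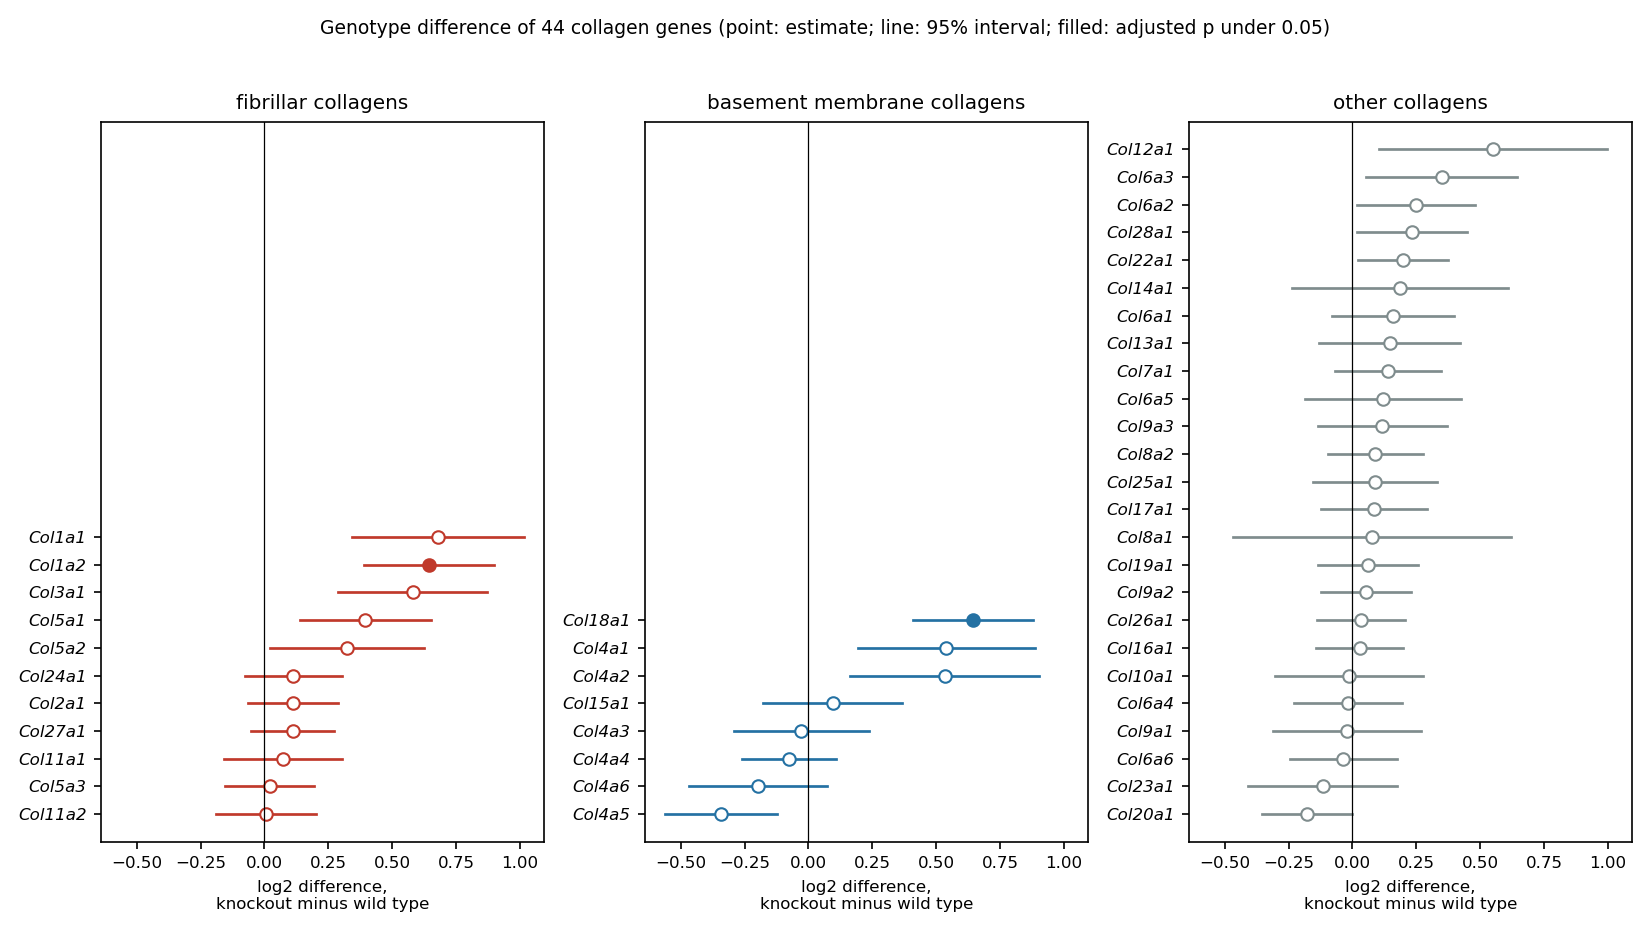
Log2 difference (knockout minus wild type, horizontal axis) of each of the 44 collagen genes, in 3 panels by class; points are limma estimates from 4 arrays per genotype, lines are 95% intervals, and filled points passed an adjusted p under 0.05. The filled points are Col1a2 and Col18a1, the fibrillar chains run from 0.01 to 0.68, and the basement membrane panel extends from -0.34 to 0.64.

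Type I collagen, the main fibril former of the gut wall, is a trimer of chains from Col1a1 and Col1a2. Col1a2 read 9.64, 9.31, 9.26 and 9.41 in wild type replicates 1 to 4 and 10.20, 10.19, 9.84 and 9.95 in the knockouts (log2 signal). Every knockout value lay above every wild type value, with knockout replicate 3 the lowest. The means were 9.40 ± 0.17 and 10.05 ± 0.18 (SD, n = 4 each), a 1.56-fold difference (log2 difference 0.64, SE 0.11, limma adjusted p = 0.0396). The call held in 2 of the 8 fits that left out 1 array, those without wild type replicate 1 and without knockout replicate 3, and the difference ranged from 0.59 to 0.72 over the 8. In knockout replicate 3, without pancreatic RNA, Col1a2 stood 0.44 above the wild type mean. A second, dimmer probe set of Col1a2 had a difference of 0.48, and its genotype ranges overlapped.

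Col1a1 behaved much like its partner but varied more among wild type mice. Wild type replicates 1 to 4 had 10.23, 9.60, 9.85 and 9.65, and the knockouts 10.69, 10.69, 10.27 and 10.38. The groups did not overlap, although wild type replicate 1 came close to knockout replicate 3. Its 1.60-fold difference was the largest of the 44 (log2 difference 0.68, 95% interval 0.34 to 1.02) and missed the threshold at a limma adjusted p of 0.0832. Without wild type replicate 1 the difference was 0.81 and passed (limma adjusted p = 0.0321).

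Col3a1 encodes the single chain of type III collagen, which is laid into fibrils with type I early in repair. Its values were 10.27, 10.04, 10.21 and 10.14 in wild type and 10.99, 10.82, 10.34 and 10.84 in knockout. Knockout replicate 3 lay just above the highest wild type mouse, and the other 3 knockouts well above it. The log2 difference was 0.58 with an SE of 0.13 (limma adjusted p = 0.0856). It was 0.17 in knockout replicate 3 and 0.72 without it, where the test was passed (limma adjusted p = 0.00625).

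Type V collagen starts fibrils and sets their diameter. Col5a1 had 8.25, 7.97, 8.16 and 7.82 in wild type and 8.61, 8.44, 8.23 and 8.50 in knockout, with knockout replicate 3 inside the wild type range and the other 3 knockouts above it. Its log2 difference was 0.39 (limma adjusted p = 0.147). For Col5a2, encoded next to Col3a1, the wild type values were 7.63, 7.27, 7.62 and 7.27 and the knockout values 8.04, 7.82, 7.46 and 7.76. The same array fell within the wild type range, and the difference was 0.32 (limma adjusted p = 0.315). A second Col5a1 probe set, dim at 5.34 in wild type, differed by -0.01.

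The remaining fibrillar chains are known mainly from other tissues or as minor components. Col2a1 and both type XI genes, chains of cartilage fibrils, differed by 0.11, 0.07 and 0.01, and Col5a3, Col24a1 and Col27a1 by 0.02, 0.11 and 0.11. None reached an unadjusted p under 0.05, and the genotypes overlapped for all 6. All 11 fibrillar genes thus had a difference above 0, with a median of 0.11. In knockout replicate 3, 8 of the 11 lay above the wild type mean. In the class median knockout replicates 1 to 4 stood at 0.23, 0.18, 0.07 and 0.21 above the wild type mean.

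**Figure D2:**
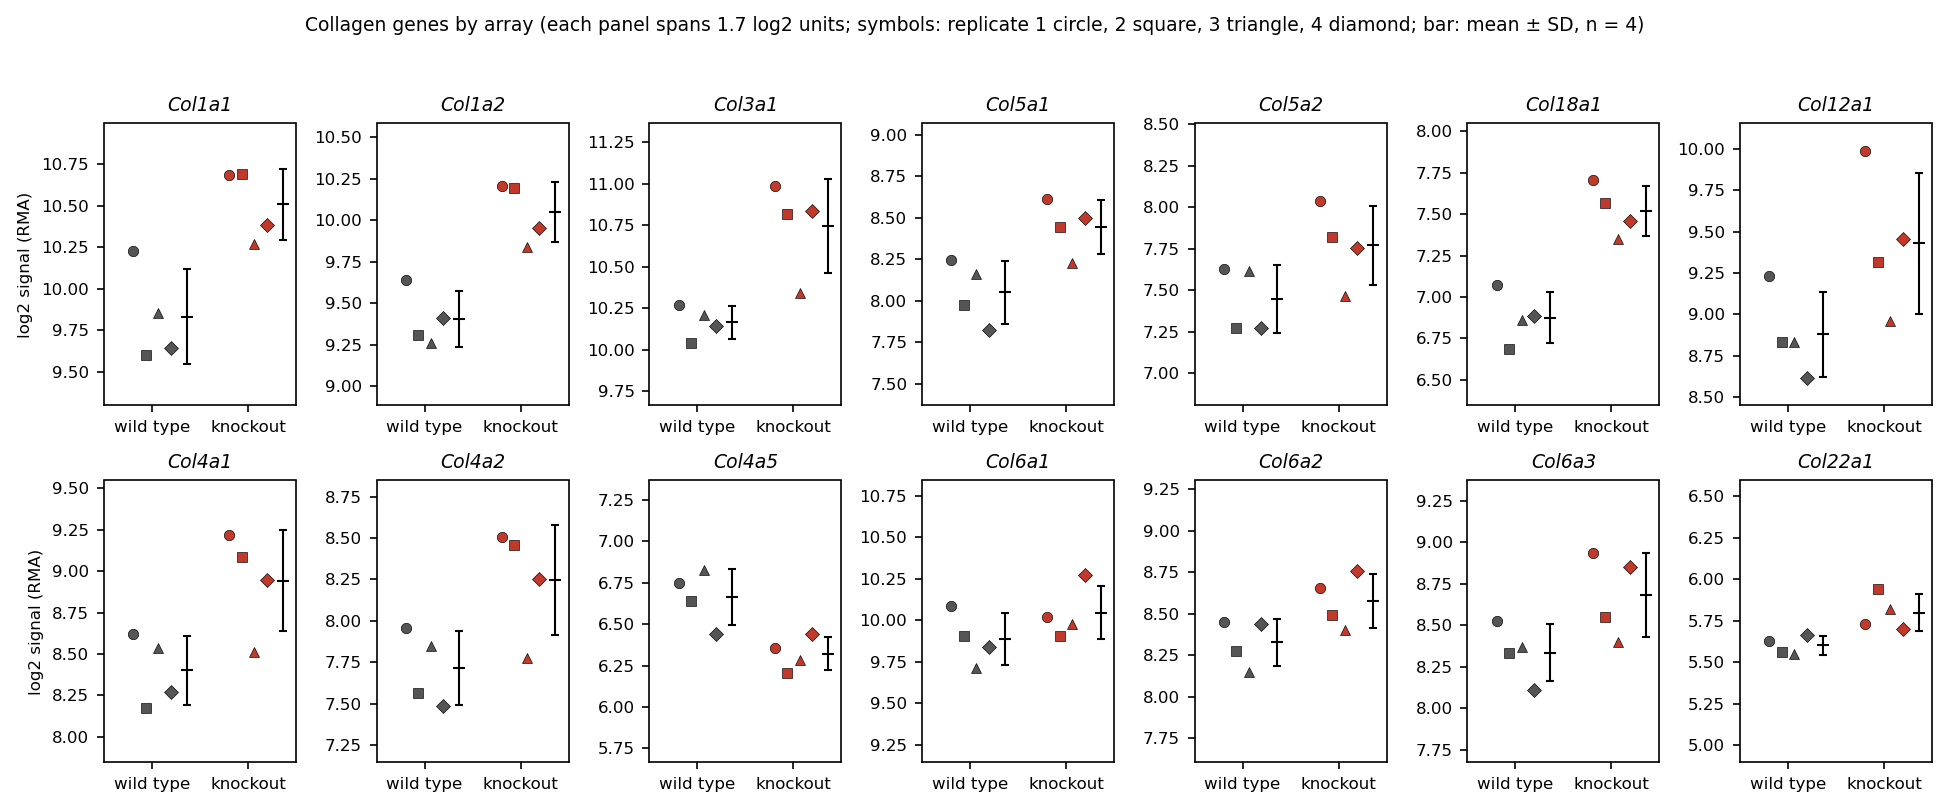
Log2 signal (vertical axis) in each of 4 wild type (grey) and 4 knockout (red) arrays for 14 collagen genes, with the symbol giving the replicate number and bars the mean ± SD (n = 4); panels have different starting points but all span 1.7 log2 units. Col1a1, Col1a2, Col3a1 and Col18a1 show no overlap between genotypes, Col4a5 shows none in the other direction, and the triangle of knockout replicate 3 falls among the wild type points for Col4a1, Col4a2, Col5a1, Col5a2 and Col12a1.

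Among basement membrane chains, Col18a1 was the clearest difference. Type XVIII collagen lies in vascular and epithelial basement membranes, and its end fragment is endostatin, known to restrain vessel growth. The values were 7.07, 6.69, 6.86 and 6.89 in wild type and 7.70, 7.57, 7.35 and 7.46 in knockout. Every knockout lay above every wild type mouse. Col18a1 went from 6.88 ± 0.16 to 7.52 ± 0.15 (SD, n = 4 each), a 1.56-fold difference with a 95% interval of 1.33-fold to 1.84-fold (limma adjusted p = 0.0299). The call held without wild type replicate 1 and without knockout replicate 3 and ended without any other array, with differences from 0.58 to 0.71. In knockout replicate 3 alone the shift was 0.47. Its relative Col15a1, the other collagen of the basement membrane zone in this class, had a difference of 0.10 (95% interval -0.18 to 0.37).

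The type IV genes split. Col4a1 had 8.62, 8.18, 8.53 and 8.27 in wild type and 9.22, 9.08, 8.51 and 8.95 in knockout. Col4a2 had 7.96, 7.56, 7.85 and 7.49 against 8.50, 8.45, 7.78 and 8.25. In both genes knockout replicates 1, 2 and 4 lay above all wild type mice and knockout replicate 3 among them. The 2 differences were nearly equal, at 0.54 for Col4a1 (SE 0.16, limma adjusted p = 0.142) and 0.53 for Col4a2 (SE 0.17, limma adjusted p = 0.171). Without knockout replicate 3 both passed, at 0.68 and 0.69 (limma adjusted p = 0.0407 and 0.0441), while in that array alone they were 0.11 and 0.06.

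Col4a5 and Col4a6, the neighbouring X-linked chains that form the type IV network around smooth muscle and some epithelia, lay below 0. Wild type replicates 1 to 4 read 6.75, 6.64, 6.83 and 6.44 for Col4a5 and the knockouts 6.36, 6.21, 6.28 and 6.44. All knockouts were lower than all wild type mice, though knockout replicate 4 and wild type replicate 4 were almost level. The log2 difference was -0.34 (95% interval -0.56 to -0.12, limma adjusted p = 0.142), and knockout replicate 3 was at -0.38. Col4a6 differed by -0.20 with overlapping groups (limma adjusted p = 0.519). Col4a3 and Col4a4, the pair of the kidney filter, were dim and differed by -0.03 and -0.08.

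The contrast within type IV was also measured on each array as one chain minus the other, a comparison chosen after the values were seen. Col4a1 minus Col4a5 lay between 1.54 and 1.87 in wild type and between 2.23 and 2.88 in knockout. The groups did not overlap, and knockout replicate 3 was the lowest knockout. The difference in this log2 ratio was 0.88. A test of it is not reported, because the pair was picked for its opposite directions. Col4a2 minus Col4a6 differed by 0.73, with knockout replicate 3 just below the highest wild type mouse. The mean of 8 smooth muscle markers was lower in knockout by 0.38, with all 8 below 0 and 0 called. It ranged from 10.50 to 10.92 in wild type and from 10.15 to 10.73 in knockout. Its part in the Col4a5 difference was not tested.

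**Figure D3:**
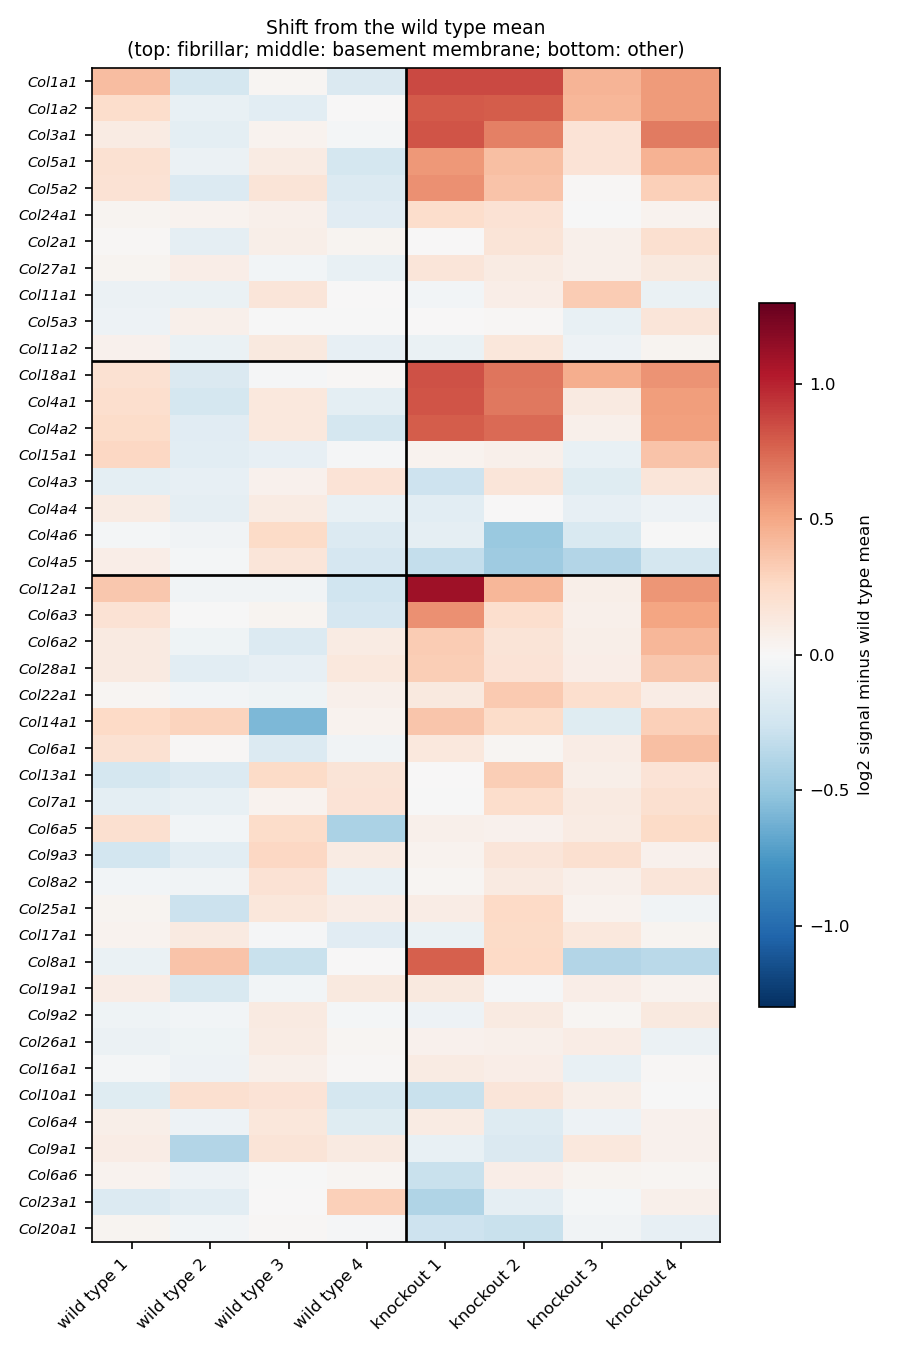
Each cell is the log2 signal of a collagen gene (row) on an array (column) minus the wild type mean of that gene, red above and blue below; black lines separate genotypes and the fibrillar, basement membrane and other classes. Red cells of knockout replicates 1, 2 and 4 gather at the top of each class, knockout replicate 3 is paler there (Col4a1 at 0.11 against a mean of 0.68 in the other 3), and Col4a5 is blue in all 4 knockouts.

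Of the 25 other chains, 0 passed the adjusted test. At an unadjusted limma p under 0.05, 5 of these chains were higher and 1 lower (6.22% and 8.10% of all genes). Col12a1, a fibril-associated collagen that links fibrils in tissue under load, had the largest difference among them. It read 9.23, 8.83, 8.84 and 8.62 in wild type and 9.98, 9.32, 8.96 and 9.46 in knockout. Knockout replicate 1 was the highest and knockout replicate 3 within the wild type range. The difference was 0.55 with an SE of 0.20 (limma adjusted p = 0.240). Its value was 0.36 without knockout replicate 1 and 0.08 in knockout replicate 3 alone.

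Type VI collagen forms beaded filaments close to cells, from a trimer of the products of Col6a1, Col6a2 and Col6a3. Col6a3 had 8.53, 8.33, 8.37 and 8.11 in wild type and 8.93, 8.55, 8.40 and 8.85 in knockout, with a difference of 0.35 (limma adjusted p = 0.262). Col6a2 had 8.45, 8.28, 8.15 and 8.44 against 8.66, 8.49, 8.40 and 8.76, a difference of 0.25 (limma adjusted p = 0.309). Col6a1, its neighbour on the chromosome, had 10.09, 9.91, 9.71 and 9.84 against 10.02, 9.91, 9.98 and 10.28, and its difference of 0.16 had an interval of -0.08 to 0.40. The groups overlapped for all 3 chains. Their intervals overlap too, so the order of the 3 differences is not established. A second Col6a1 probe set, dimmer at 6.08 in wild type, differed by -0.01. The alternative chain genes Col6a4, Col6a5 and Col6a6 differed by -0.02, 0.12 and -0.04.

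Col22a1, known from tissue junctions such as that of muscle and tendon, was a small but separated difference. Its wild type values of 5.63, 5.56, 5.55 and 5.67 all lay below the knockout values of 5.73, 5.94, 5.82 and 5.70, for a difference of 0.20 (limma adjusted p = 0.290). Knockout replicate 3 took part fully here, at 0.22. Col20a1 separated the other way, with 6.63 to 6.70 in wild type, 6.38 to 6.62 in knockout and a difference of -0.18 (limma adjusted p = 0.348), which was -0.04 in knockout replicate 3. Col28a1 differed by 0.23 with overlapping ranges (limma adjusted p = 0.303), and by 0.09 in knockout replicate 3.

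The other fibril-associated genes Col9a1, Col9a2, Col9a3, Col14a1, Col16a1 and Col19a1 differed by -0.02 to 0.19. Col14a1, a fibroblast product, had the widest scatter among them because wild type replicate 3 was low, at 6.64 against 7.26 to 7.51 in the other wild type mice. Col7a1, which makes the anchoring fibrils beneath stratified epithelia, differed by 0.14. The transmembrane collagens Col13a1, Col17a1, Col23a1 and Col25a1 lay between -0.12 and 0.15, and Col26a1 at 0.03. Of the short chain collagens, Col8a2 and Col10a1 differed by 0.09 and -0.01. Col8a1, found around vessels, varied from 6.61 to 7.77 among the knockouts, and knockout replicate 1 was the highest, so its difference of 0.08 has an interval of -0.47 to 0.62. None of these genes reached an unadjusted p under 0.05.

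The collagens with strong array signal nearly all read higher in knockout. Of the 44 genes, 10 had a mean above 7.70, the 75th percentile of all genes, and 9 of these 10, all but Col6a1, were higher at an unadjusted p under 0.05, with differences from 0.16 to 0.68 over the 10. Over all 5545 genes above that level the share was 6.94%, and 13.3% were lower. Among the 34 dimmer collagens 4 were higher (11.8%) and 2 lower (5.88%) at that threshold, against 5.98% and 6.38% of the 16635 other genes, and the median difference was 0.08. Col18a1, which had the smallest p of the 44, was among these 34, with a mean of 7.20. The level was set after the values were seen and serves as a description. As a rough guide to background, 5 members (Col4a4, Col9a1, Col10a1, Col11a1 and Col19a1) had a mean under 5.53, the 95th percentile of 1105 olfactory receptor genes, which colon is not known to express. Signals of different probe sets do not share a scale, so a bright probe set is not proof of more RNA.

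**Figure D4:**
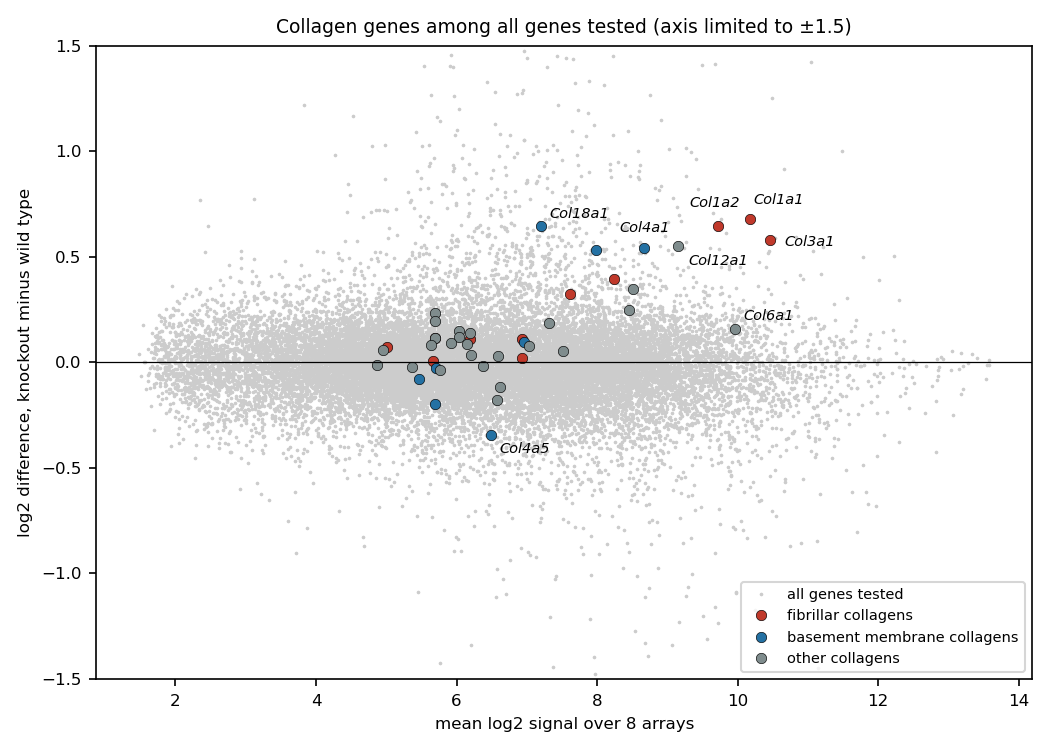
Log2 difference (knockout minus wild type, vertical axis) against mean log2 signal over 8 arrays (horizontal axis), with all genes tested in light grey and collagen genes coloured by class; 83 genes beyond ±1.5 are not drawn. The bright collagens on the right, from Col6a1 at 0.16 to Col1a1 at 0.68, all lie above 0, and the dimmer ones lie on both sides of it, with Col18a1 at 0.64 and Col4a5 at -0.34.

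Knockout replicate 3 was the lowest of the 4 knockouts in 19 of the 44 genes (43.2%), against 23.3% of all genes tested. Adjusting for each array's pancreatic marker mean left log2 differences of 0.46 for Col1a2, 0.50 for Col18a1, 0.47 for Col1a1 and -0.37 for Col4a5, with 0 collagen calls. The differences of Col3a1, Col4a1, Col4a2 and Col12a1 became 0.22, 0.16, 0.10 and 0.17. In that fit 2 of 22180 genes were called. The pancreatic mean of knockout replicate 3 (5.46) was close to wild type (5.63 to 5.76), so the adjusted differences rest mainly on that array. Its own shifts were 0.44 for Col1a2, 0.47 for Col18a1, 0.44 for Col1a1 and -0.38 for Col4a5. For Col3a1, Col4a1, Col4a2 and Col12a1 they were 0.17, 0.11, 0.06 and 0.08. The adjusted fit is therefore not a check separate from that array. Replicate 3, the knockout without pancreatic RNA, held the lowest knockout value of Col3a1, Col4a1, Col4a2 and Col12a1. The same was true of Col1a2, Col18a1 and Col1a1, but not of Col4a5, where replicate 2 was lowest.

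Marker lists of cells that make collagen also differed between genotypes, by 0.23 in the mean for fibroblasts, 0.45 for activated fibroblasts, 0.29 for pericytes and 0.18 for endothelium, beside -0.38 for smooth muscle. In knockout replicate 3 these were 0.04, 0.09, 0.06, -0.14 and -0.56. The mean of 8 fibroblast markers ranged from 8.90 to 9.72 in wild type, where replicate 3 was the lowest and the others lay at 9.50 or above. In knockout it ranged from 9.46 to 9.85, with 7 of 8 markers above 0 and 0 called. Dcn (0.50) and Lum (0.36), the largest differences of the fibroblast list, are also counted below among the genes that make, process, bind and cut collagen. Pericyte markers (5 of 5 above 0, 0 called) ranged from 7.72 to 8.12 and from 8.05 to 8.41, and endothelial markers (5 of 6 above 0, 0 called) from 7.33 to 7.80 and from 7.49 to 7.98. Of 6 activated fibroblast markers 5 were above 0 and 1 rose, the cytokine gene Il11 at 1.20 (limma adjusted p = 0.0310), which was 0.55 in knockout replicate 3. The wild type mean of Il11, 5.44, lay under the background guide of 5.53, so the size of its difference is uncertain. The level of the activated fibroblast list was 7.11 to 7.38 in wild type and 7.37 to 7.99 in knockout, with replicate 3 again the lowest knockout. Adipocyte and mesothelial lists overlapped widely, at 5.95 to 6.76 against 5.97 to 7.34 and 5.67 to 6.15 against 5.67 to 6.07. All 6 squamous epithelial markers measured had means under the background guide. The part of any of these cells in the collagen differences was not tested.

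Genes that make, process, bind and cut collagen were counted from a list of 74, of which 68 were measured. Of these 5 rose and 0 fell at the adjusted threshold, beside 0.392% and 0.185% of all genes. A difference above 0 was seen in 54 of the 68, against 46.1% of all genes, and the median difference was 0.14 beside 0.10 for the collagens and -0.01 for all genes. Most of the calls were enzymes that cut collagen. Of 9 collagenases and inhibitors 4 rose, Mmp8, Mmp9, Mmp13 and Mmp14. Mmp8, the collagenase of neutrophils, read 4.89, 4.57, 5.06 and 5.07 in wild type and 7.04, 7.78, 7.07 and 6.48 in knockout, a 4.57-fold difference (limma adjusted p = 0.00459). All knockouts including replicate 3 were more than 1 unit above all wild type mice. Every wild type value of Mmp8 lay under the background guide of 5.53, so the size of its fold is uncertain. Mmp13, another collagenase, was 4.38-fold higher (limma adjusted p = 0.0186), at 7.06, 6.45, 6.11 and 7.20 in wild type and 9.20, 9.22, 7.94 and 9.00 in knockout. Knockout replicate 3 was the lowest of its group and still above every wild type mouse. Mmp9, a gelatinase that cuts denatured collagen, read 6.62, 5.91, 5.94 and 6.45 against 7.36, 7.89, 7.46 and 7.28 and was 2.41-fold higher (limma adjusted p = 0.0186). Mmp14, which cuts fibrils at the cell surface, read 9.67, 9.57, 9.54 and 9.61 against 10.09, 10.19, 9.99 and 10.01 and was 1.39-fold higher (limma adjusted p = 0.0299). Neither gene overlapped between genotypes. Of the 8 fits leaving out 1 array, Mmp8 passed in 8, Mmp9 in 6, Mmp13 in 5 and Mmp14 in 2. Timp1, an inhibitor of these enzymes named after its value was seen, differed by 1.85 (0.84 in knockout replicate 3) and missed the threshold (limma adjusted p = 0.0516).

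No gene of the assembly machinery passed the test, beside 0.392% of all genes called higher and 0.185% lower. Lists this small would hold few calls at those shares. Of 16 hydroxylases and chaperones 0 were called, and 11 lay above 0, against 46.1% of all genes, with a median of 0.10. At an unadjusted limma p under 0.05, 3 were higher, against 6.22% of all genes. The same shares of all genes stand beside the counts of the lists below. P4hb, a subunit of prolyl 4-hydroxylase that also acts as a general folding enzyme, had 10.69, 10.59, 10.82 and 10.67 in wild type and 11.05, 11.10, 10.93 and 10.84 in knockout, a difference of 0.29 without overlap (limma adjusted p = 0.160). Among 7 genes of propeptide processing 0 were called, and 1 was higher at an unadjusted limma p under 0.05. Bmp1, which trims the end of fibrillar procollagens, read 7.84, 7.59, 7.36 and 7.62 against 8.19, 8.01, 7.64 and 8.10. Its difference was 0.38, with knockout replicate 3 inside the wild type range (limma adjusted p = 0.220). Of 5 crosslinking genes all lay above 0, 0 passed and 1, Lox, was higher at an unadjusted limma p under 0.05. Lox, the enzyme that crosslinks fibrils, read 7.80, 7.00, 6.79 and 7.61 in wild type and 8.61, 9.01, 7.69 and 8.18 in knockout. Its log2 difference of 1.07 exceeded that of any collagen, but its SE was 0.29, knockout replicate 3 lay inside the wild type range and the test was missed (limma adjusted p = 0.128).

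Of 14 basement membrane partners measured, 1 rose and 0 fell, beside 0.392% and 0.185% of all genes. Lama1, a laminin chain, had 6.54, 6.28, 6.49 and 6.33 in wild type and 7.01, 7.04, 6.97 and 7.11 in knockout, 1.54-fold higher (limma adjusted p = 0.0130). Its knockout values were tight, and knockout replicate 3 was level with the rest. The call held in 7 of 8 fits leaving out 1 array and was lost without wild type replicate 2 (limma adjusted p = 0.0593). Lamc3, another laminin chain, lay at -0.40 (limma adjusted p = 0.131) and Nid2, a linker between laminin and type IV collagen, at 0.50 (limma adjusted p = 0.0569), both named after their values were seen. Of 8 fibril-associated matrix genes and 9 receptors 0 were called in either set. At an unadjusted limma p under 0.05, 2 of the matrix genes were higher and 1 lower, and 2 receptors were higher and 2 lower. Of all genes 6.22% were higher and 8.10% lower at that threshold. Sparc, a collagen-binding matrix protein, read 10.65, 10.42, 10.31 and 10.63 in wild type and 10.92, 10.82, 10.52 and 10.86 in knockout. Only knockout replicate 3 fell within the wild type range, and the difference was 0.28 (limma adjusted p = 0.287). Mrc2, the uptake receptor for collagen fragments, had 6.65, 6.31, 6.52 and 6.48 against 6.97, 6.90, 6.73 and 6.74. All its knockout values lay above all wild type values, with a difference of 0.34 (limma adjusted p = 0.134).

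**Figure D5:**
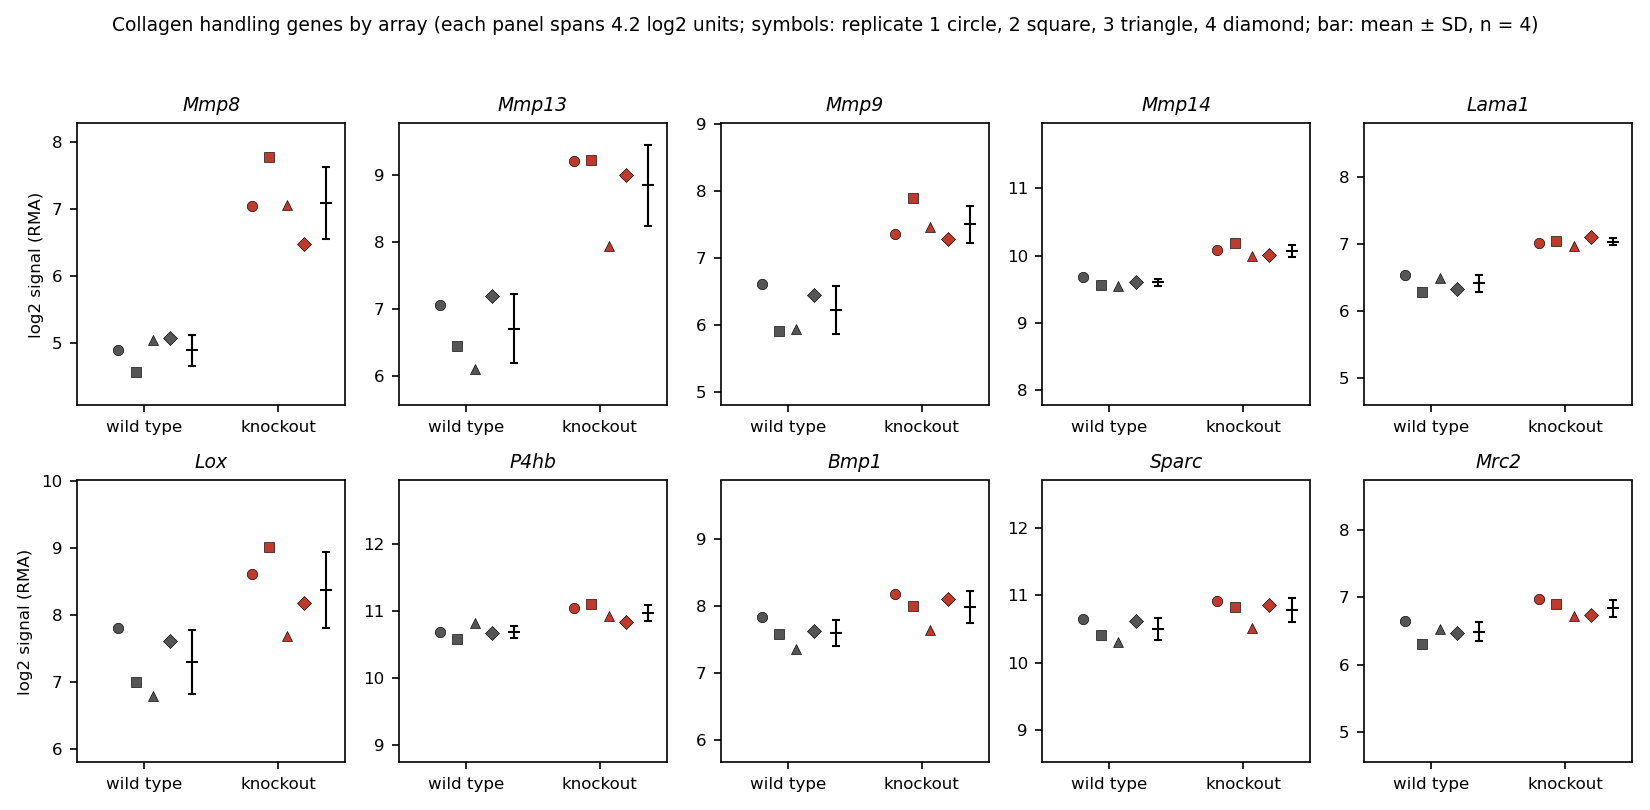
Log2 signal (vertical axis) in each wild type (grey) and knockout (red) array for 10 genes that cut, crosslink, process or bind collagen; symbols give the replicate number, bars the mean ± SD (n = 4), and all panels span 4.2 log2 units. Mmp8, Mmp9, Mmp13, Mmp14 and Lama1 separate the genotypes and passed the test, while Lox, Bmp1 and Sparc overlap.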

How the data were processed

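Total RNA, 200 ng per mouse, was labelled with biotin and hybridised to Affymetrix whole-transcript arrays, per the labels' protocols. The authors deposited log2 values, made by RMA in Affymetrix Expression Console 1.4, per the submitters' processing notes; RMA can compress differences of dim and very bright genes. No source used here gives filters or scan dates. Of 41345 probe sets, 23521 carried 1 gene symbol, giving 22180 genes. Genotypes were compared by limma (version 3.58.1, R 4.3.3, no covariate, no filter, Benjamini-Hochberg over all genes, threshold 0.05), tested on simulated data first. Folds are back-transformed log2 differences.

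Values in every array are given for collagens past the threshold, the 3 smallest p in each class and 10 core chains, and for handling genes past the threshold or first in their subgroup. Other genes were named after their values were seen. The members and lists were chosen with earlier results of these data known. The number of arrays limits precision.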

Additional observations from a re-analysis of the deposited data

How the results depend on the processing

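The collagen count of 2 higher was 1 with array medians set equal and with all probe sets of a gene averaged. It was 0 with the pancreatic covariate, the replicate block or knockout replicate 3 alone against wild type, and 0 to 5 when 1 array was left out. The count of 0 lower held in all settings. The 5 collagen handling calls became 1 with knockout replicate 3 alone, 0 with the pancreatic covariate, 2 with the replicate block and 1 to 7 leaving out 1 array. The 128 calls over all genes became 199 with array weights, 203 without the dimmest 33.3% of genes, 14 with knockout replicate 3 alone, 2 with the pancreatic covariate, 64 with the replicate block and 25 to 252 leaving out 1 array. Counts from 1 knockout array, or beside a covariate that follows genotype in 3 of 4 knockouts, have little power. The covariate fit rests mainly on knockout replicate 3 against wild type, so these settings are not separate checks. With the covariate the log2 differences were 2.14 for Mmp8, 1.21 for Mmp9, 1.31 for Mmp13, 0.40 for Mmp14 and 0.56 for Lama1. The cause of the other changes was not tested. The collagen median stayed between 0.08 and 0.12 leaving out 1 array but was 0.06 with the pancreatic covariate and 0.07 with knockout replicate 3 alone, and the fibrillar median was 0.22 without the dimmest 33.3% of genes, which removes dim chains. The basement membrane median of 0.03 went down to -0.04 leaving out 1 array, to -0.05 for type IV alone and to -0.11 both with the pancreatic covariate and with knockout replicate 3 alone, so it has no settled sign. No direction turned among the 14 collagens and 10 handling genes with values in every array. Some of the others, none with an unadjusted limma p under 0.05, turned in knockout replicate 3. Col14a1, Col15a1, Col8a1, Col5a3 and Col16a1 lay at -0.16, -0.10, -0.38, -0.09 and -0.09 there, and Col11a2 and Col24a1 at -0.06 and -0.004. Col9a1, Col10a1 and Col6a6, which had differences below 0, lay at 0.13, 0.08 and 0.03. Same-numbered mice are different animals, and their deviations correlated at -0.14, -0.16, 0.04 and 0.05. These values give no sign that the numbers pair the arrays, but shared processing was not tested. With the replicate block the limma adjusted p was 0.0561 for Col1a2 and 0.0580 for Col18a1.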
